A study of Mus musculus with 33 samples.

Results

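The genes Mid1, Gpd1, S100a11, Rin1, Nrtn, Gadd45b, Csf2ra, Reep4 and Pglyrp1 were chosen by their level in mature olfactory sensory neurons (mOSN) sorted from mice with different numbers of working Dnmt3a copies. The deposited value of each increased from wild type (WT, Dnmt3a +/+) through heterozygous null (Het, Dnmt3a +/-) to homozygous null (KO, Dnmt3a -/-). They are 9 of 14744 genes with values in the mOSN table, and all 9 are also among the 14613 genes of a second table from whole main olfactory epithelium (MOE). All 9 passed the filter on low values in both tables. Because the mOSN values chose these genes, they are described without a test, and tests are given only in MOE.

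All animals were mice at 3 weeks of age, and the 3 genotypes were measured by RNA-seq after depletion of ribosomal RNA. The mOSN table has 1 pooled value per genotype from 2 libraries each, and the marker used to sort the cells is not given in the sources used here. The MOE table has 6 libraries, 1 for each genotype after 60 min with water and 1 after 60 min with a blend of octanal, acetophenone and amyl acetate in equal parts, called odor here. A habituation of 10 min and a volume of 80 uL are given for all 6. The labels do not say whether MOE libraries share animals or pool several, or which part of Dnmt3a the null allele lacks. Both WT mOSN libraries were made with the ScriptSeq kit from 200 ng of RNA and both KO mOSN libraries with the NuGEN kit from 100 ng, while Het had 1 of each. Kit and genotype therefore follow the same order in mOSN and cannot be told apart there. All MOE libraries were made with NuGEN.

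Dnmt3a encodes a DNA methyltransferase that places new methyl groups on cytosine, mostly where a guanine follows (CpG), but in neurons also at other positions. Olfactory sensory neurons arise throughout life from basal stem cells of the epithelium, and mature ones carry odorant receptors on cilia in the nasal cavity. They lie among sustentacular cells, which support them much as glia do, basal cells, gland cells and immune cells. The 9 genes do not form a pathway. They encode a growth factor (Nrtn), a cytokine receptor subunit (Csf2ra), a secreted antibacterial protein (Pglyrp1), a stress-induced protein linked to DNA demethylation (Gadd45b), a regulator of Ras and Rab5 (Rin1), a microtubule-associated ubiquitin ligase (Mid1), an endoplasmic reticulum protein (Reep4), a calcium-binding protein (S100a11) and a metabolic enzyme (Gpd1).

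Dnmt3a itself had a pooled mOSN value of 175 in WT, which dropped to 120 in Het (68.6% of WT) and 56.2 in KO (32.2% of WT). In MOE the KO mean was 60.3% of the WT mean, both WT libraries (84.4 and 89.0) were above all others, and Het (50.3 and 66.6) overlapped KO (56.1 and 48.3). The whole reads behind the MOE values could be recovered and totalled 9410063 to 17639584 per library. The depth of the mOSN columns is unknown. Omp, the defining marker of mature olfactory neurons, stood at 16661 (WT), 10449 (Het) and 7612 (KO) in mOSN, against 2717 to 5962 in the WT and KO libraries of MOE and 1582 and 249.1 in its Het libraries, and all 14 listed markers of these neurons were measured in the sorted cells.

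Whether the 9 genes share a promoter type was examined in RefSeq sequence (build GRCm38.p6), since CpG is the main target of this enzyme. Promoters were listed for 7 of the 9 genes, at 9 start sites, and not for Gpd1 and Reep4. In the 250 bases before the start, CpG ranged from 0 to 22 among these sites, against a median of 6 (quartiles 2 and 16) over 32851 mouse start sites. Printed are the extremes of that span, Gadd45b and Mid1, with Csf2ra and Pglyrp1 from between them, and every CpG in capitals. Capitals also mark a match to TAATTA (a homeodomain core) in Mid1 and to TGACGTCA (a cAMP response element, which contains a CpG) in Csf2ra. The Gadd45b promoter (chr10:80929841-80930090, + strand) held 22 CpG, a number that 14.8% of start sites reach or exceed. That of Csf2ra (chr19:61228419-61228668, - strand) held 17 (23.5%), and that of Pglyrp1 (chr7:18884440-18884689, + strand) held 3 (71.0%). The Mid1 start shown (chrX:169684949-169685198, + strand) held 0, and 2 other Mid1 starts held 5 and 9.
Gadd45b: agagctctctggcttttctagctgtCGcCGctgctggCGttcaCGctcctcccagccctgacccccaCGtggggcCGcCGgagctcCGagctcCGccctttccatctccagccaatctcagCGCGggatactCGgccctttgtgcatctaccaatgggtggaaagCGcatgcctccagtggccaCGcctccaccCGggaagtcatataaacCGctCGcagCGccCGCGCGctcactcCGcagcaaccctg
Csf2ra: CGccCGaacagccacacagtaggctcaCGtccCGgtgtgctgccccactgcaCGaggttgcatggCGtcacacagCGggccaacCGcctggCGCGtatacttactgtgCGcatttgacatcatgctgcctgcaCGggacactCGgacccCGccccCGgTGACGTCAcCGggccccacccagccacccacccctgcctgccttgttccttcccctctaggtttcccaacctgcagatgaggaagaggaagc
Pglyrp1: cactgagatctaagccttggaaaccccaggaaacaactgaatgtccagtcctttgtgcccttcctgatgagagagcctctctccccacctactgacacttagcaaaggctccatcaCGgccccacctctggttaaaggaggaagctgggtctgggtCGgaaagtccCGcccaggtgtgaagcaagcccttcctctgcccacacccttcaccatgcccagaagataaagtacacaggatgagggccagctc
Mid1: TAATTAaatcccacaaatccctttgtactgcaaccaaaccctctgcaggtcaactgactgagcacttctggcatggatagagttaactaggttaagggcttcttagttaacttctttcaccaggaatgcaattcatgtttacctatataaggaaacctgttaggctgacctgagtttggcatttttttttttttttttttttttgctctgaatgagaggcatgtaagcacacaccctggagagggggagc
The genes not printed lay between, with 19 CpG before Nrtn, 11 before S100a11 and 6 before Rin1. Searched on both strands, TAATTA was present in 1 of the 9 windows (4.84% of all start sites), TGACGTCA in 1 (1.55%) and the consensus site of EBF factors in 0 (0.779%). The genes thus included both CpG-rich and CpG-poor promoters.

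In mOSN, the 9 genes went from WT values of 5.97 to 31.6, below the median of 36.5 over all 14738 genes kept, to KO values of 60.2 to 121, above the KO median of 32.1. The log2 difference of KO from WT had a median of 1.98 (range 1.45 to 3.23) against -0.13 over all genes. That of Het from WT had a median of 0.74 (0.43 to 2.11) against -0.02. All values are on the authors' RPKM scale (read density by gene length and library size), and log2 differences were taken after adding 0.5. A level at least 2-fold above WT was not rare in KO mOSN: 17.5% of all genes reached it, with 2.84% at least 2-fold below, while 21.9% increased and 32.7% decreased in the order WT, Het, KO. Both an increase in that order and a 2-fold difference were seen for 13.5%, and 9.52% differed at least as much as Pglyrp1, the lowest of the 9. Scarce genes made up most of these: among genes under 10 in WT, as Mid1 and Gpd1 were, 54.8% were at least 2-fold above WT in KO (the limit of 10 was set after the values were seen). Among genes within the WT range of the 9, 14.5% were at least 2-fold above WT in KO. That range includes genes under 10, which were 2354 of the 2579 genes at least 2-fold above WT. For genes at 10 or more in WT, as all of the 9 but Mid1 and Gpd1 were, the share was lower. In Het, 3 of the 9 (Mid1, S100a11 and Nrtn) were at least 2-fold above WT. Among all genes 6.89% were, and 2.5% were at least 2-fold below. The choice of the genes had already set Het above WT in each of the 9. None of them could be lower, and their count above WT is no test against all genes. The plot of mOSN values by genotype shows the 9 rows and the plot of all genes shows where they lie.

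**Figure D1:**
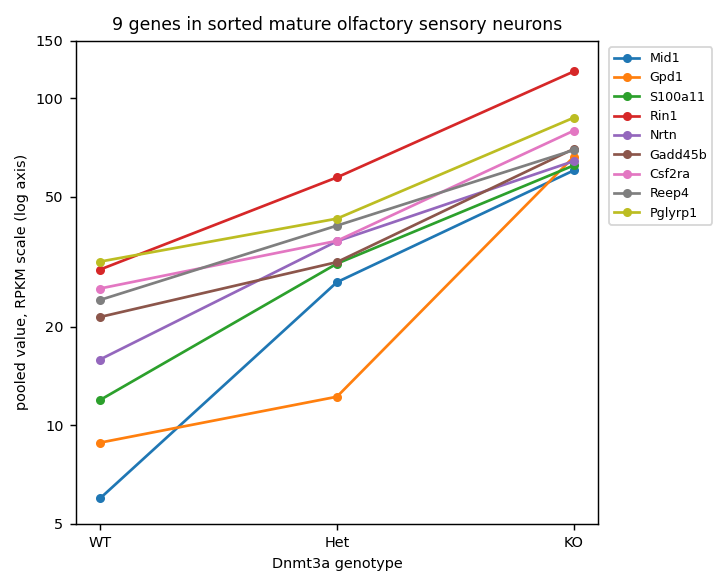
Pooled mOSN value of each of the 9 genes (RPKM scale, log axis) by Dnmt3a genotype, 1 point per genotype with no error available. WT values span 5.97 to 31.6 and KO values 60.2 to 121, and the line of Gpd1 has the steepest step from Het to KO (5.42-fold).

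**Figure D2:**
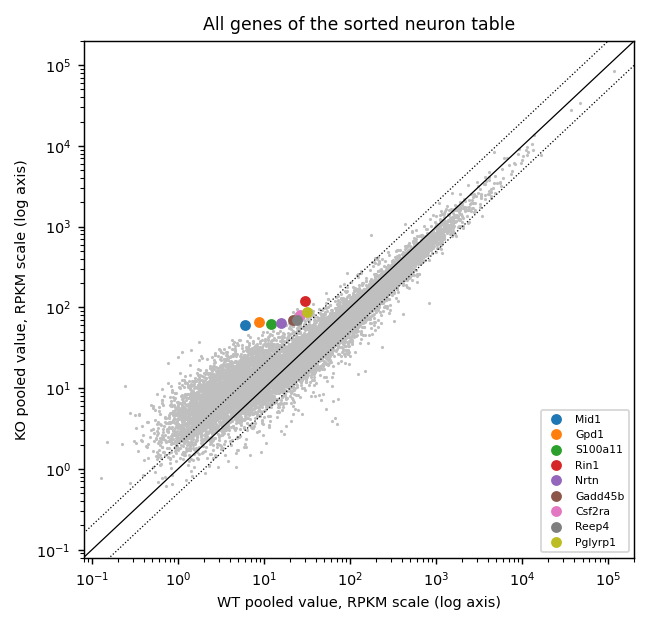
KO against WT pooled value (RPKM scale, log axes) for every gene of the mOSN table in grey, with the 9 genes in color, the solid line marking equality and the dotted lines 2-fold. The 9 lie on the upper edge of the cloud, while 17.5% of all genes lie at least 2-fold above WT.

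The first group encodes proteins that act outside the cell or receive such signals. Nrtn encodes neurturin, a ligand of the GDNF family that signals through the co-receptor Gfra2 and the kinase Ret to support neurons. In mOSN it went from 15.9 (WT) over 36.5 (Het) to 64.2 (KO). The MOE libraries, water before odor, gave 25.1 and 37.5 for WT, 17.3 and 47.3 for Het and 22.4 and 43.9 for KO, and the same order is used for the other genes. The genotypes overlapped in MOE, and in each the odor library was the higher, on 18 to 65 reads per library. Csf2ra encodes the ligand-binding subunit of the receptor for GM-CSF, a cytokine of myeloid cells. The sorted neurons had 26.2 (WT), 36.6 (Het) and 79.6 (KO). MOE gave 30.9 and 30.9 for WT, 30.7 and 35.4 for Het and 26.2 and 31.6 for KO, so that all 3 genotypes overlapped.

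Pglyrp1 encodes a secreted protein that binds bacterial cell walls and is stored in neutrophil granules. It stood at 31.6 (WT), 42.8 (Het) and 87.2 (KO) in the sorted neurons. It was among the most abundant RNAs of MOE, at 1657 and 3646 for WT, 1906 and 2868 for Het and 1915 and 2248 for KO. The KO libraries lay between the WT libraries, so no genotype order was seen in MOE. Within MOE it ranked at percentile 99.0 to 99.6 of all genes, and within mOSN at 47.1 in WT and 74.4 in KO.

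The second group acts inside the cell in stress and signalling. Gadd45b is induced by stress and, in neurons, by activity, and has been linked to removal of DNA methylation. Sorted neurons gave 21.4 (WT), 31.5 (Het) and 70.0 (KO). MOE libraries gave 27.04 and 45.9 for WT, 58.1 and 108 for Het and 38.2 and 47.9 for KO. Both Het libraries were above all 4 others, while WT and KO overlapped, so the genotype with the highest level was KO in mOSN and Het in MOE. Rin1 encodes a protein that binds active Ras, activates Rab5 in endocytosis and stimulates Abl kinases. Of the 9 it had the highest KO value in mOSN, going from 29.9 (WT) through 57.3 (Het) to 121. MOE gave 10.0 and 8.96 for WT, 5.58 and 19.3 for Het and 16.1 and 20.7 for KO. Both KO libraries were above both WT libraries, and the Het libraries spanned the WT range, on 25 to 108 reads per library.

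The third group encodes proteins of the cytoskeleton, membranes and metabolism. Mid1 encodes a ubiquitin ligase on microtubules that promotes breakdown of the catalytic subunit of phosphatase 2A. It had the largest KO over WT ratio of the 9 in mOSN, 10.1-fold, from 5.97 in WT through 27.4 in Het to 60.2 in KO, rank 13 of all genes by log2 difference. It was scarce in MOE, at 4.402 and 3.31 for WT, 2.67 and 2.84 for Het and 3.99 and 6.26 for KO. Both Het libraries were below both WT libraries, which is the reverse of the mOSN order, and WT and KO overlapped. Reep4 encodes an endoplasmic reticulum protein that clears this membrane from chromosomes in mitosis; its relative Reep1 can help odorant receptors reach the cell surface. The sorted neurons had 24.1 (WT), 40.8 (Het) and 69.5 (KO). MOE gave 52.1 and 82.9 for WT, 95.6 and 118 for Het and 110.1 and 99.7 for KO. Both mutant genotypes were above both WT libraries, and Het and KO overlapped.

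S100a11 encodes a calcium-binding protein that pairs with annexins and is common in epithelial cells. Sorted neurons gave 11.9 (WT), 31.2 (Het) and 62.3 (KO). MOE libraries gave 1154 and 1749 for WT, 1551 and 1937 for Het and 1551 and 1316 for KO, with all 3 genotypes overlapping. Gpd1 encodes the cytosolic glycerol-3-phosphate dehydrogenase, which links glycolysis to lipid synthesis. It stepped up mainly between Het and KO in mOSN, at 8.84 (WT), 12.2 (Het) and 66.2 (KO). MOE gave 29.3 and 21.4 for WT, 40.1 and 38.5 for Het and 20.0 and 19.7 for KO. Both KO libraries were below both WT libraries and both Het libraries above them, so its MOE order did not follow the mOSN order.

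**Figure D3:**
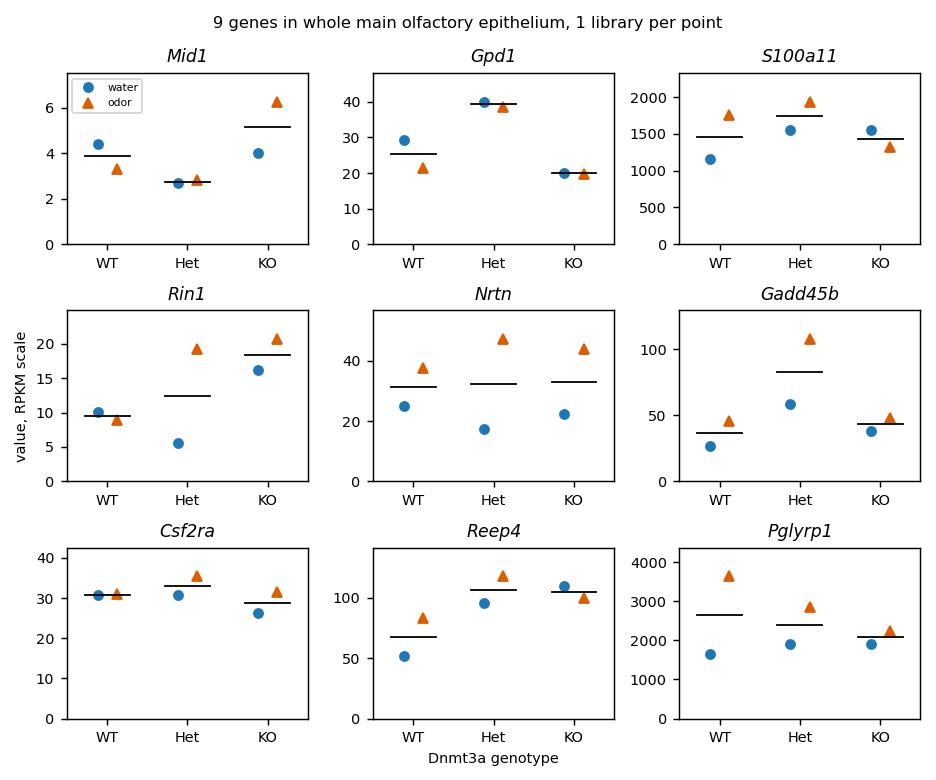
MOE value (RPKM scale, axes from 0) of each of the 9 genes by genotype, with 1 library per point, circles for water, triangles for odor and a line at the mean of the 2. KO and WT points do not overlap for Rin1 and Reep4 (KO higher) and for Gpd1 (KO lower).

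KO and WT were compared in MOE, where a single kit was used and whose values the rule for choosing the genes does not use. Reep4 was higher in KO (log2 0.67 ± 0.25, SE, over 6 libraries with treatment as a term), as was Rin1 (0.91 ± 0.52), and Gpd1 was lower (-0.33 ± 0.28). None of the 9 passed limma's two-sided test (adjusted p = 1 for each), nor did any of 14602 genes (0% called higher and 0% lower). Before adjustment, 185 genes were higher (1.27%) and 141 lower (0.966%) at limma's 0.05 level. Of the 9 only Reep4 was among them, and voom on the recovered reads called 0 genes after adjustment. The remaining log2 differences were 0.35 ± 0.48 for Mid1, 0.28 ± 0.25 for Gadd45b, 0.031 ± 0.31 for Nrtn, 0.01 ± 0.26 for S100a11, -0.10 ± 0.26 for Csf2ra and -0.24 ± 0.29 for Pglyrp1. The median of the 9 was 0.031, and that of all genes -0.01. Both KO libraries were above both WT libraries for 2 of the 9, against 12.4% of all genes, and below for 1, against 13.3%. Of the 11 marker lists described with the sorted neurons, 2 had summed values in MOE that did not overlap between KO and WT. The macrophage sum was higher in KO (2019 and 4242, against 1374 and 1817). Lyz2 alone made up most of it (1254 and 3626, against 844 and 1114). By limma estimate, 10 of the 14 macrophage markers were higher in KO and 4 lower. The lymphocyte sum was lower in KO (63.8 and 28.7, against 74.6 and 73.3), with 3 of 5 markers lower and 2 higher. The part of these cell types in the values of the 9 genes was not tested. In bulk RNA, more cells that express a gene and more RNA per cell cannot be told apart.

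**Figure D4:**
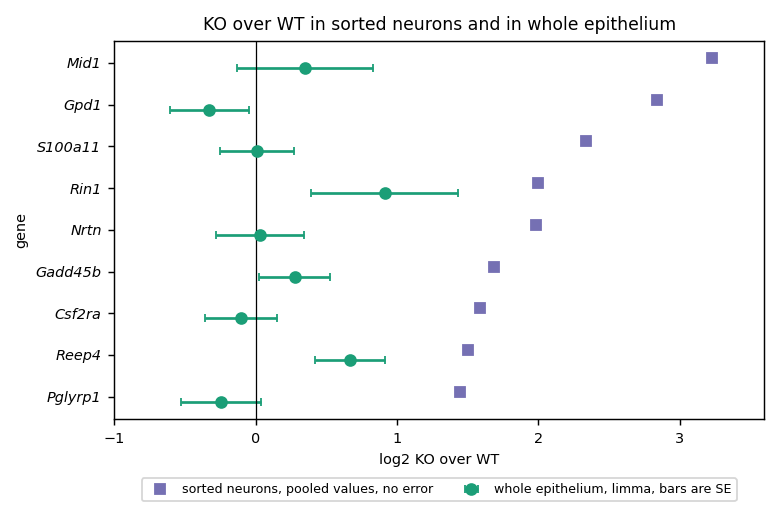
Log2 KO over WT of the 9 genes from the pooled mOSN values (squares, no error available) and from limma in MOE (circles, bars are SE). The mOSN values chose the genes and lie between 1.45 and 3.23, and the MOE values lie between -0.33 and 0.91.

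Het was compared with the same WT libraries, so this comparison is not independent of the previous one. Gadd45b was higher in Het (log2 1.16 ± 0.25), as were Reep4 (0.69 ± 0.25) and Gpd1 (0.64 ± 0.28). None of the 9 passed (limma adjusted p from 0.706 to 0.954), and limma called 0% of all genes higher and 0% lower, and voom called 0. Before adjustment 395 were higher (2.71%) and 582 lower (3.99%) at limma's 0.05 level, Gadd45b and Reep4 among the former. Both Het libraries were above both WT libraries for Gpd1, Gadd45b and Reep4, against 19% of all genes, and below for Mid1, against 18%. Summed markers of mature neurons, macrophages and lymphocytes did not overlap between Het and WT, while those of every other marker list did. Mature neuron markers summed to 9873 and 5625 in Het, below 23972 and 18005 in WT, while macrophage markers (2558 and 2637) and lymphocyte markers (81.7 and 99.1) were above both WT libraries. The part of these cell types in the Het values of Gadd45b, Reep4 and Gpd1 was not tested. Without WT water, limma called 27 genes between Het and WT and still none of the 9.

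Odor exposure was the other factor in MOE. Nrtn (log2 0.98 ± 0.25), Gadd45b (0.65 ± 0.20) and Pglyrp1 (0.65 ± 0.23) were higher with odor in each of the 3 genotypes. None of the 9 passed limma's test (adjusted p from 0.882 to 0.982). Over all genes 2 were called higher (0.0137%) and 0 lower (0%), and before adjustment 3.01% were higher, these 3 genes among them, and 1.86% lower at limma's 0.05 level. Csf2ra was also higher with odor in each genotype, which made 4 of the 9 against 15.6% of all genes, and Gpd1 was lower in each, against 11.9%. The log2 difference of odor from water for Gadd45b was 0.75 (WT), 0.88 (Het) and 0.32 (KO), and for Pglyrp1 1.14, 0.59 and 0.23. Neutrophil markers summed higher with odor in each genotype as well, from 2354 to 6195 in WT, 4650 to 8257 in Het and 4502 to 4801 in KO. So did macrophage and microvillous markers, and ensheathing glia markers summed lower in each. Single genes weighed heavily in these sums, as Ltf did for neutrophils in WT (295 to 2085) and Lyz2 for macrophages in KO (1254 to 3626). Other markers went either way with odor in KO. Ngp (445 to 336) and Cd68 (119 to 43.3) were lower, and Mmp8 (46.2 to 168) and Mrc1 (16.5 to 24.5) higher. The part of these cells in the odor values of Pglyrp1 and the other genes was not tested. Whether the odor effect in KO differed from that shared by WT and Het was tested with 1 residual degree of freedom. It did not pass for any of the 9 (limma adjusted p from 0.774 to 0.995), with -0.50 ± 0.41 for Gadd45b and -0.63 ± 0.45 for Pglyrp1. Over all genes 0% were called higher and 0% lower, and voom called 0. Before adjustment 548 (3.75%) were higher and 491 (3.36%) lower at limma's 0.05 level, none of the 9 among them.

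Set side by side, the tables place the 9 genes in unlike surroundings. The tables were normalized separately, so ratios between them carry that difference. S100a11 and Pglyrp1 were mostly RNAs of the whole tissue, with a KO MOE mean (water and odor) 23.0-fold and 23.9-fold the KO mOSN value, and a WT mean 122-fold and 83.8-fold the WT mOSN value. Mid1 and Rin1 were the opposite, with a KO mOSN value 11.7-fold and 6.56-fold the KO MOE mean. From WT to KO, the ratio of mOSN to MOE went from 1.55 to 11.7 for Mid1, from 0.349 to 3.33 for Gpd1 and from 0.848 to 2.76 for Csf2ra. The mOSN increase was set by the choice of the genes, so these increases in the ratio largely restate it. The kit differed as well, with ScriptSeq for WT mOSN and NuGEN for KO mOSN and all of MOE. Only Reep4, S100a11 and Pglyrp1 of the 9 stayed below the MOE mean in KO mOSN.

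Relatives and partners of the 9 genes were counted from lists. The GDNF, peptidoglycan and colony-stimulating factor lists consisted mostly of scarce genes, with median WT mOSN values of 2.73, 1.91 and 4.09, so their counts stand beside the 54.8% of genes under 10 in WT that were at least 2-fold above WT in KO. Of 7 measured GDNF family genes other than Nrtn, 4 were at least 2-fold above WT in KO mOSN and 0 below (median log2 1.08, against -0.13 over all genes). They were the ligand Gdnf (1.74 in WT, 6.47 in Het, 14.7 in KO), the co-receptors Gfra3 (5.70, 6.23 and 19.3) and Gfra4, and the kinase Ret. In MOE 5 of the list were measured, all with a lower KO than WT estimate (median log2 -0.55), and 0 passed limma. Of 5 genes of peptidoglycan recognition, 4 were at least 2-fold above WT (median 1.30), among them Trem1, a myeloid receptor that Pglyrp1 can activate (1.40, 3.71 and 6.70), Tlr2 (2.63, 6.79 and 8.88), Nod1 and Nod2. Of 10 genes of GM-CSF and related receptors and their signalling, 3 were at least 2-fold above WT and 0 below (median 0.42): Stat5a (2.02, 1.91 and 7.48), Csf3r (1.02, 1.151 and 4.14) and Csf1r (2.299, 2.19 and 7.53). The last 2 also stand on the neutrophil and macrophage marker lists.

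The other 7 lists had median WT mOSN values of 27.2 to 107.7. Over all genes, 17.5% were at least 2-fold above WT and 2.84% below. Most of those above were under 10 in WT (2354 of 2579), so the share above was lower at the medians of these lists. Of 3 further Gadd45-named genes 0 were 2-fold apart, with Gadd45g at 19.7, 20.9 and 31.6 and Gadd45a at 27.2, 25.3 and 18.8 in WT, Het and KO mOSN. Of 12 genes around Ras and Rab5, 2 were 2-fold above WT, both relatives of Rin1: Rinl (7.40, 8.21 and 28.6) and Rin3 (2.29, 4.79 and 7.08). Of 9 S100 and annexin genes 1 was above, Anxa1 (3.03, 8.72 and 10.6), and 1 below, S100a13 (181, 39.5 and 47.0). Of 9 REEP and receptor transport genes 0 were above and 1 was below, Rtp4 (9.82, 4.25 and 3.64). Trim67 was the only 1 of 9 Mid1 relatives and partners above (5.99, 6.73 and 13.8), and Lipe, a lipase, the only 1 of 7 genes around glycerol phosphate and lipid (5.13, 7.60 and 15.8). Of 13 genes of DNA methylation, Dnmt3b was above (0.647, 0.709 and 1.89) and Dnmt3a itself below. Every gene named here as above, the relatives of Rin1 included, was under 10 in WT. At that level 54.8% of all genes were at least 2-fold above WT in KO. In MOE, limma called 0 members of each list between KO and WT.

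Markers of several other cell types were also higher in KO than in WT mOSN, as many scarce genes were. The horizontal basal, neutrophil, lymphocyte, endothelial, macrophage and ensheathing glia lists had median WT values under 10, where 54.8% of genes were at least 2-fold above WT. The share over all genes was 17.5%. It came mostly from genes under 10 in WT (2354 of 2579), so it was lower at the medians of the other lists. The summed value of 12 sustentacular markers went from 509 (WT) over 664 (Het) to 765 (KO), against 25529 to 36823 in MOE, and 5 of the 12 were at least 2-fold above WT in KO. Krt8 of that list went from 25.5 through 46.3 to 78.1 in mOSN, close to the values of Pglyrp1, but Cyp2g1, an abundant sustentacular enzyme, went from 132 through 128 to 80.9. Horizontal basal cell markers summed to 14.9, 24.5 and 86.7 (5 of 6 at least 2-fold above WT), as in Krt5 (2.88, 8.38 and 24.9) and Krt14 (1.75, 4.60 and 22.6). Of 15 listed neutrophil markers 8 were measured in mOSN, and S100a8 and S100a9 were not among them. These 8 summed to 59.2, 46.3 and 121 (5 of 8). Macrophage markers summed to 110, 104 and 135 (4 of 10 above and 1 below), microvillous ones to 257, 361 and 485 (1 of 6), endothelial ones to 20.9, 27.99 and 52.1 (3 of 5), lymphocyte ones to 24.0, 16.7 and 38.9 (3 of 4), erythroid ones to 2447, 1767 and 2562 (2 of 8 above and 3 below) and ensheathing glia ones to 83.0, 63.3 and 78.5 (1 of 7 above and 2 below). Immature neuron and progenitor markers summed to 5720, 5824 and 5594 (0 of 11), and the 14 mature neuron markers to 79588, 74539 and 52779 (0 above and 1, Omp, below). The part of these cell types in the mOSN values of the 9 genes was not tested.

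**Figure D5:**
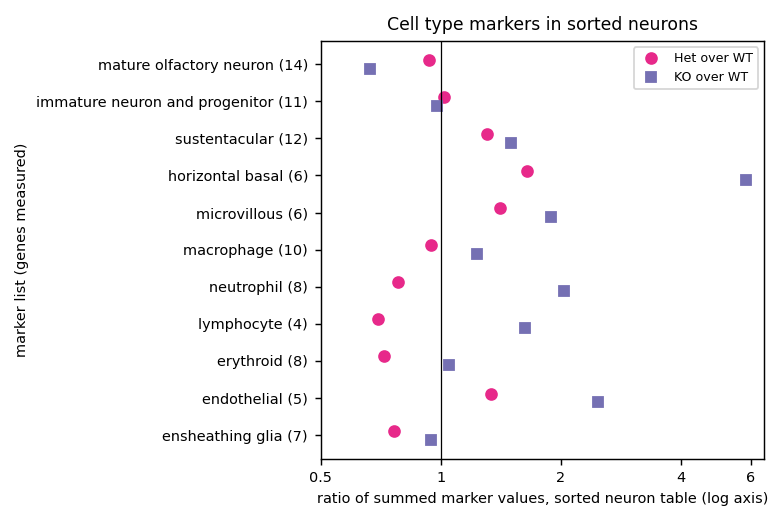
Summed mOSN value of each marker list in Het (circles) and KO (squares) as a ratio to WT (log axis), with the number of measured markers in parentheses and 1 pooled value per genotype. Horizontal basal cell markers have the highest KO ratio (5.82) and mature neuron markers the lowest (0.663).

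Genes with the same pattern in mOSN were looked for in 2 ways. Nearest to the median of the 9 in log2 Het over WT and log2 KO over WT, by Euclidean distance over these 2 values among 12724 genes, were Cpz (distance 0.0243), Loxl4 (0.0323), Magee2 (0.0418), Tgfa (0.0557) and Lypd1 (0.0756). All 5 were scarcer than the 9 in KO mOSN, as in Tgfa, a growth factor of the EGF family, at 7.29 (WT), 12.9 (Het) and 29.4 (KO). In MOE, Tgfa was at 463 to 746, and none of the 5 passed limma between KO and WT (adjusted p = 1). By level, 19 genes (0.129%) increased in the genotype order with a log2 difference and a KO value at least as high as the lowest of the 9. Besides the 9, these were the odorant receptors Olfr615, Olfr420, Olfr24, Olfr290, Olfr315 and Olfr90, the histone gene Hist1h2ak, the pseudogene Rpl13a-ps1, Krt8 and Ugt2a1. They are named after their values were seen. Ugt2a1, a glucuronosyltransferase of the olfactory epithelium, stood highest at 175 (WT), 429 (Het) and 780 (KO), and at 1984 to 3094 in MOE.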

How the data were processed

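RNA-seq was available for 12 of the 33 samples; the other 21 were not analysed here. The authors deposited both tables as RPKM, with 1 column for each MOE library and 1 for each mOSN genotype; the sources used here do not say how 2 mOSN libraries became 1 column. The submitters' processing notes name STAR 2.3.0, Bowtie2 2.1, featureCounts, Picard 1.64 and DESeq, and the builds NCBIM37 and mm9, without roles. In MOE, each of the 14613 genes (100%) had values that are whole reads, up to a divisor common to its 6 counts, within 0.0001 reads. In mOSN, 7 of 14751 rows had no values.

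Analysis used log2(value + 0.5) and genes that reached 0.5 in 2 or more columns (14738 mOSN, 14602 MOE), so fold changes of scarce genes are understated. MOE was fitted with limma 3.58.1 in R 4.3.3 (genotype and treatment, mean-variance trend, two-sided, Benjamini-Hochberg over all genes, threshold 0.05, 2 residual degrees of freedom). Its p-values reflect only how these libraries vary, which may be technical, and differences in odor effect between genotypes count as error. The planned tests in mOSN could not be run on 1 value per genotype. The scripts were tested on simulated data. Alternatives changed the pseudocount, filter, trend, scaling, block and libraries, or used voom on recovered reads.

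All 9 genes are named. From each family list at most 3 genes are given by rule, those with the largest absolute log2 KO over WT at 1 or more in every mOSN column, with the 5 genes nearest to the median of the 9; Ret, Nod2, Dnmt3b and single markers were named after their values were seen. Members and lists were chosen with earlier results of these data known.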

Additional observations from a re-analysis of the deposited data

Results flagged for a closer look

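For 2 of the 9 genes, a genotype difference had opposite signs in mOSN and in both MOE treatments. Gpd1 was higher in KO than in WT in mOSN (log2 2.84) and lower in MOE with water (-0.54) and with odor (-0.11). Mid1 was higher in Het than in WT in mOSN (log2 2.11) and lower in MOE with water (-0.63) and with odor (-0.19). Both KO libraries of Gpd1 were below both WT libraries in MOE, as for 13.3% of all genes. Both Het libraries of Mid1 were below both WT libraries, as for 18%. The mOSN signs were set by the choice of the genes, and the difference between the preparations was not tested.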

How the results depend on the processing

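No paired analysis was possible because the mOSN table holds 1 value per genotype and the MOE libraries have no replicate numbers. In mOSN, median-ratio scaling moved the median log2 KO over WT of all genes from -0.13 to 0.00 and the 9 genes to 1.59 to 3.36; the genes at least 2-fold apart went from 2579 higher and 419 lower to 2930 and 284, and no setting moved a member by 1.5 times or changed a sign. In MOE, no setting made any of the 9 pass in any of the 4 comparisons. Called genes for KO against WT were 0 in every setting run. For Het against WT they were 0 except without single libraries, where they ranged from 0 to 27 (27 without WT water). For odor they were 2, but 0 without the mean-variance trend, 1 with median-ratio scaling, 1 without the genotype block, 6 with voom, and 0 to 4 with libraries left out. Signs turned only when libraries were left out. For KO over WT the log2 ranges were then -0.13 to 0.83 for Mid1, -0.41 to 0.43 for S100a11, -0.28 to 0.34 for Nrtn, -0.23 to 0.031 for Csf2ra and -0.70 to 0.21 for Pglyrp1, while Reep4 (0.26 to 1.07), Rin1 (0.32 to 1.502), Gadd45b (0.028 to 0.52) and Gpd1 (-0.54 to -0.11) kept their sign. For Het over WT the ranges were -0.79 to 1.06 for Rin1, -0.52 to 0.33 for Nrtn, -0.022 to 0.21 for Csf2ra and -0.44 to 0.29 for Pglyrp1, and for odor -0.14 to 0.33 for Mid1. The cause was not tested. Reads of 18 to 65 for Nrtn and 25 to 108 for Rin1 limit what MOE can show for them.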
